A study of Mus musculus with 18 samples.

Results

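The cells described here were treated with transforming growth factor β (TGFβ) in medium that already held nicotinamide (NAM), and the comparison asks which transcripts TGFβ changed on that background. They are 6 of the 18 libraries of the series, chosen by their sample titles: 3 libraries from cells given NAM at 1 mM and 3 from cells given the same NAM with TGFβ at 10 ng/mL, all for 48 h. The other 12 libraries are controls without any addition, cells given TGFβ alone, cells given S-adenosyl methionine (SAM) at 0.5 mM, and cells given TGFβ with SAM, again in groups of 3. All groups are one line, im-TEC, mouse tubular epithelial cells made conditionally immortal with SV40 large T antigen. It was kept at a low temperature with interferon-γ, then moved to a restrictive temperature without interferon-γ for a week so that large T activity fell. Insulin, transferrin, selenium, triiodothyronine, hydrocortisone and epidermal growth factor were in the growth medium of every group. Nothing in the labels says whether the 3 libraries of a group came from separate cultures, so the p-values measure the spread between these libraries, which may be technical.

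TGFβ binds paired serine/threonine kinase receptors that phosphorylate SMAD2 and SMAD3, which enter the nucleus with SMAD4 and induce matrix, contractile and feedback genes. In the kidney tubule it is known as a driver of fibrosis and of the loss of epithelial character. Nicotinamide is the form of vitamin B3 that NAMPT salvages into NAD and that the methyltransferase NNMT, the enzyme named in the title of the series, clears by spending SAM.

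RNA was read near the 3′ end of each polyadenylated transcript, and the deposited values are read counts per gene. Counts assigned to genes totalled 6776196, 7717626 and 6871231 in NAM replicates 1 to 3 and 5611708, 6512282 and 5634529 in TGFβ+NAM replicates 1 to 3, so the NAM group was deeper (exact permutation p = 0.1, two-sided, the smallest that 3 against 3 allows). The share of counts from mitochondrial transcripts was 8.63 ± 0.565% (SD, n = 3) without TGFβ and 6.86 ± 0.41% with it, also without overlap (exact permutation p = 0.1). In 2 of the 6 libraries, NAM replicate 3 and TGFβ+NAM replicate 1, many abundant transcripts were shifted in the same direction. Reads outside genes made up 23.9% and 22.8% of their reads, against 26.2% to 27.3% in the other 4. Values without both are given where they change a call or move a count of a list most.

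The tubular label was checked against epithelial markers. The kidney transcription factor gene Pax8 stood at 208, 224 and 229 CPM (counts scaled to a common library size) in NAM, and the kidney cadherin gene Cdh16 at 228, 208 and 206 CPM. Keratin 8, the water channel Aqp1 and the endocytic receptor Lrp2 were measured too. By contrast, Epcam had 0 reads in all 18 libraries, and E-cadherin, Cdh1, had 1 read in NAM and 5 in TGFβ+NAM. Keratin 18, Krt18, was close to absent as well, with 7 reads in NAM and 9 in TGFβ+NAM. Most markers of other cell types were near 0, whereas Cd68, Csf1r, Synpo and part of a longer podocyte list were not. Of 8 fibroblast markers 6 had 0 reads in these 6 libraries, with a summed level of 0 to 1.26 CPM in NAM and 0.718 to 4.49 CPM in TGFβ+NAM. For endothelium 3 of 5 markers had 0 reads, with sums of 0.128 to 0.145 CPM in NAM and 0 CPM in TGFβ+NAM. Immune markers, 3 of 6 with 0 reads, summed to 12 to 16.8 and 4.65 to 9.75 CPM, almost wholly Cd68, a lysosomal gene that other cells use too. A longer list of 12 immune genes, 6 of them at 0 reads in each group, summed to 72.3 to 95.5 CPM in NAM. In TGFβ+NAM it summed to 49.4 to 61.3 CPM, with Csf1r and Cd68 lower by 0.68 and 1.31. Fcer1g, on few reads, was higher. Its call was lost without any 1 of the 6 libraries (edgeR adjusted p = 0.0503 to 0.219) and without both libraries that stood apart (0.281). Csf1r averaged at least 50 CPM over the 6 libraries. Of 4 podocyte markers 2 had 0 reads, Wt1 had 1 read in NAM and 16 in TGFβ+NAM, and Synpo, an actin-binding protein gene, made up the rest. A longer list of 8 podocyte genes, 3 of them at 0 reads in each group, summed to 306 to 325 CPM in NAM. In TGFβ+NAM it summed to 293 to 336 CPM. Of its 4 tested genes 1 rose and 2 fell, and 0 rose and 1 fell without both libraries that stood apart. In bulk RNA, fewer cells of a type and less RNA per cell cannot be told apart.

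TGFβ changed about as many transcripts upward as downward. Of 13469 genes with enough counts to test, 1463 were higher in TGFβ+NAM (10.9%) and 1484 lower (11%). Counts of listed genes below are to be read beside these shares. A gene is called higher or lower, and is said below to have risen or fallen, where the adjusted p was under 0.05 in edgeR's quasi-likelihood test over all tested genes. A change of at least 2-fold was met by 410 of the risen genes (3.04% of those tested) and 530 of the fallen ones (3.93%). The groups of 3 did not overlap for 4611 genes (34.2%), of which 2773 were also called. The median log2 change over all tested genes was 0.00, with a median SE of 0.20. Genes that rose at least 2-fold took 1.68 ± 0.042% of all CPM in NAM and 5.14 ± 0.14% in TGFβ+NAM, and those that fell at least 2-fold went from 3.44 ± 0.07% to 1.11 ± 0.059%. Without the 2 libraries that stood apart, 1257 genes were higher and 1263 lower, and 2279 of the 2947 calls were shared. At this depth, 65% of simulated 2-fold changes and 35% of 1.5-fold changes were called, so a gene that did not pass may still have changed. The simulation changed 200 genes, far fewer than were called here, and held no shift shared between libraries. Its shares are therefore only a rough guide.

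**Figure D1:**
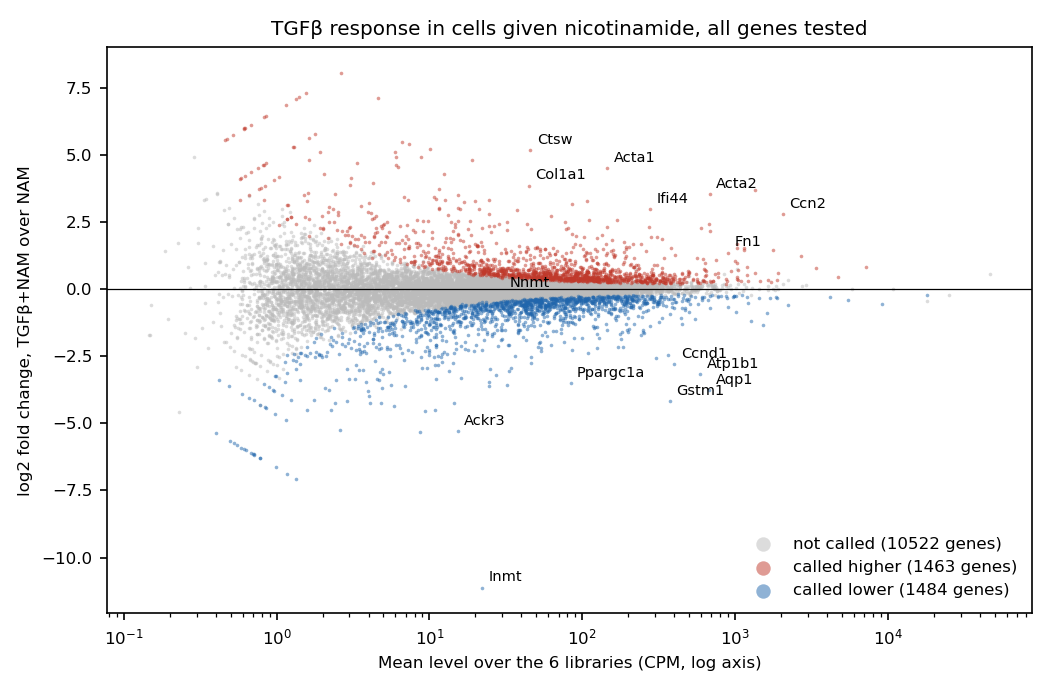
Response of every tested gene to TGFβ in the presence of NAM. The horizontal axis is the mean level over the 6 libraries in CPM (log scale) and the vertical axis the fitted log2 change, TGFβ+NAM minus NAM; each point is a gene, red for the 1463 that rose, blue for the 1484 that fell and grey for those that did not pass. Rises and falls are about equally many, and Aqp1 and Atp1b1 are abundant genes far below the zero line.

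Genes that TGFβ is known to switch on directly rose. Ccn2, the matricellular connective tissue growth factor, stood at 506, 528 and 525 CPM in NAM replicates 1 to 3 and at 3370, 3710 and 3630 CPM in TGFβ+NAM replicates 1 to 3. Every TGFβ+NAM library lay far above every NAM library, with a log2 change of 2.78 ± 0.08 (SE; edgeR adjusted p = 4.47e-32). Pmepa1, which binds SMADs and dampens the pathway, went from 210, 212 and 215 to 1030, 1180 and 1170 CPM (2.41 ± 0.09). Of 10 tested feedback and direct target genes, 7 rose and 0 fell, with a median log2 change of 1.38 against 0.00 over all genes. The transcriptional repressor Bhlhe40 rose by 1.34 and Lmcd1 by 2.49. The SMAD corepressor Tgif1 gave 0.25 and did not pass (adjusted p = 0.189).

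Ligands of the family and the proteins that hold them latent moved unevenly, 5 of 10 tested rising and 2 falling (median 0.38). Inhba, the activin A subunit, was measured at 103, 104 and 101 CPM and then 351, 346 and 286 CPM, groups that were far apart (1.68 ± 0.11, adjusted p = 3.53e-17). Ltbp1, which tethers latent TGFβ to the matrix, went from 13.1, 21.1 and 14.4 to 59.9, 82.5 and 86.6 CPM (2.23 ± 0.16), whereas its relative Ltbp3 fell by 0.84. Lrrc32, a cell surface anchor of latent TGFβ, had 0, 0.128 and 0 CPM in NAM, all but absent, and 13.1, 6.89 and 7.53 CPM with TGFβ. Tgfb2 rose by 0.32. The other faller was Gdf15, a stress-induced member of the family, and the count of fallen genes was 1 without NAM replicate 1, 2 or 3 or TGFβ+NAM replicate 1 or 2, and 1 without both libraries that stood apart.

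Of 15 receptors and SMADs, 2 rose (13.3%) and 4 fell (26.7%), against 10.9% and 11% of all genes (median 0.08). The co-receptor Tgfbr3, betaglycan, had 46, 35.2 and 35.8 CPM in NAM and 16.1, 13.1 and 15.6 CPM in TGFβ+NAM, all 3 lower (-1.38 ± 0.18, adjusted p = 3.03e-08). The inhibitory Smad6 went from 39.5, 47.2 and 48.3 to 19, 19.6 and 23.3 CPM (-1.13), and the type I receptor Acvr1 from 20, 24.4 and 26.5 to 58.7, 47 and 51.1 CPM (1.14). The signalling receptor Tgfbr2 gave -0.09 (adjusted p = 0.573). Smad3 was lower by 0.39 (adjusted p = 0.00317), a call that ended without TGFβ+NAM replicate 2 (adjusted p = 0.0516). Without that library 2 of the list were lower, and 1 was higher without NAM replicate 1 or 3 or TGFβ+NAM replicate 1 or 2. Without both libraries that stood apart 1 was higher and 3 lower, and the median lay between -0.07 and 0.10 without 1 library.

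Genes of the opposing bone morphogenetic protein (BMP) branch fell. Of 15 tested BMP and inhibitor-of-differentiation genes, 8 fell and 3 rose, with a median log2 change of -1.09, and 8 fell in each fit without 1 library. ID proteins bind and block basic helix-loop-helix factors, and their genes are read-outs of BMP signalling. Id2 stood at 508, 501 and 556 CPM in NAM and 100, 83.5 and 78.2 CPM in TGFβ+NAM (-2.58 ± 0.09, adjusted p = 3.95e-28). Id4 went from 48, 40.3 and 46.2 CPM to 3.9, 5.77 and 2.33 CPM, close to the detection limit (-3.46). Id1 and Id3 fell less, by 1.15 and 1.09 on the log2 scale. The rises were in Bmp1, a procollagen protease despite its name, with 1.26, the receptor Bmpr2, with 0.63, and the ligand Bmp7, with 1.02, and Smad5 gave 0.03 (adjusted p = 0.901).

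Collagen genes rose more often than they fell. Of 18 tested collagen chains, 11 rose and 2 fell (median 1.32). Col1a1 was at 5.37, 6.04 and 5.86 CPM in NAM and at 99.8, 72 and 79.3 CPM in TGFβ+NAM, a low level in every NAM library and more than 10 times that in each TGFβ+NAM library (3.85 ± 0.19, adjusted p = 1.31e-22). Its partner chain Col1a2 went from 3.05, 3.85 and 3.77 to 26.9, 35.9 and 21.9 CPM (2.98). Col5a1, which nucleates collagen I fibrils, went from 50.9, 52.7 and 55.9 to 206, 196 and 192 CPM (1.90), and Col27a1 rose by 3.00. Chains of the basement membrane went both ways. Col4a5 went from 125, 118 and 135 to 53.9, 57.9 and 77.1 CPM (-1.01) and Col4a1, already scarce, from 3.05, 5.91 and 9.62 to 1.24, 0.801 and 0.179 CPM (-3.03), whereas Col4a3 and Col4a4 rose by 1.99 and 2.79. Col18a1 gave 0.06 and did not pass (adjusted p = 0.704).

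Among glycoproteins and proteoglycans, 7 of 12 rose and 4 fell (median 0.38). Fibronectin, Fn1, was measured at 480, 521 and 514 CPM and then at 1320, 1270 and 1300 CPM, with little spread inside either group (1.36 ± 0.07, adjusted p = 5.67e-22). Periostin, Postn, went from 50.6, 57.4 and 51.7 to 219, 224 and 207 CPM (2.02). Tnc, tenascin C, and Fmod, fibromodulin, rose by 0.71 and 1.13. Mgp, a calcification inhibitor, moved the other way, from 19.4, 23.6 and 19.7 CPM to 0.709, 1.92 and 0 CPM (-4.49), and Spp1, osteopontin, fell by 0.94. Sparc gave 0.17 (adjusted p = 0.0689), and passed without NAM replicate 2 (0.0408) or TGFβ+NAM replicate 1 (0.0415).

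The enzymes that build and cross-link collagen rose in 8 of 14 cases and fell in 2 (median 0.47). The lysyl oxidase Loxl2 was at 2.32, 3.47 and 1.95 CPM in NAM and 17.9, 21.8 and 22.4 CPM in TGFβ+NAM (2.99). The lysyl hydroxylase Plod2 rose by 0.95 and the glycosyltransferase Colgalt1 by 0.67. Pcolce, an enhancer of procollagen cleavage, fell in all 3 libraries, from 480, 446 and 422 to 194, 181 and 195 CPM (-1.24), and the prolyl hydroxylase subunit P4ha1 fell by 0.73. Of 19 proteases and inhibitors, 8 rose and 2 fell (median 0.37). The metalloproteinase inhibitor Timp3 was abundant and went from 598, 596 and 591 to 1740, 1770 and 1610 CPM (1.52), and Timp1, Mmp14, Adamts4 and Adam12 rose by 1.42, 0.95, 2.05 and 4.29. The serine protease gene Plat fell by 1.60.

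Adhesion receptors changed subunit by subunit, 5 of 16 integrin and laminin genes rising and 6 falling (median -0.20). Itgb1, the common β1 chain, went from 688, 672 and 710 to 1380, 1420 and 1270 CPM (0.98), and Itga5, its partner in the fibronectin receptor, rose by 1.15. Itga1 and Itga3, collagen and laminin receptor chains, fell by 1.69 and 1.01, and Itgb6, a chain of the integrin that activates latent TGFβ, fell by 1.98. The laminin chain Lamb3 went from 1.89, 1.41 and 2.51 to 17.7, 22.4 and 19.9 CPM (3.36), while Lama5 fell by 0.77.

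The contractile apparatus rose as a group. Of 24 tested actin and contractile genes, 17 rose and 0 fell (median 0.64), against 10.9% and 11% of all genes, and 16 rose and 1 fell without the 2 libraries that stood apart or TGFβ+NAM replicate 1 alone. Acta2, α smooth muscle actin, was at 101, 119 and 104 CPM in NAM replicates 1 to 3 and 1320, 1150 and 1300 CPM in the TGFβ+NAM replicates, about an order of magnitude apart in every pair (3.54 ± 0.10, adjusted p = 5.6e-33). Acta1, skeletal actin, went from 8.41, 14.1 and 14.4 to 306, 254 and 280 CPM (4.50), a value that reads shared with near-identical actins make uncertain. Tagln, an actin-binding protein of smooth muscle, went from 86.6, 104 and 84.5 to 313, 544 and 502 CPM, its replicate 1 with TGFβ being the lowest of that group (2.30 ± 0.20). The stress fibre genes Tpm1, tropomyosin, and Actn1, α-actinin, were already abundant at 1580, 1650 and 1580 and 972, 1000 and 827 CPM and reached 3840, 3930 and 3550 and 2180, 2780 and 2820 CPM (1.24 and 1.47). Cnn1, calponin 1, gave 0.25 and did not pass (adjusted p = 0.276).

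Many contractile genes are known targets of serum response factor, which binds the CArG box. The promoter windows of 3 contractile genes that rose and hold this motif are printed here, so that its place can be seen beside the values. They were chosen after the values were seen, are 300 bases long in the direction of the gene (250 before to 50 after its start), come from RefSeq on build GRCm38.p6, and have the match in capitals. Vcl, vinculin, lies at chr14:20929148-20929447 (plus strand), Myl9, a myosin light chain, at chr2:156775214-156775513 (plus strand) and Cnn2, calponin 2, at chr10:79988350-79988649 (plus strand).
Vcl: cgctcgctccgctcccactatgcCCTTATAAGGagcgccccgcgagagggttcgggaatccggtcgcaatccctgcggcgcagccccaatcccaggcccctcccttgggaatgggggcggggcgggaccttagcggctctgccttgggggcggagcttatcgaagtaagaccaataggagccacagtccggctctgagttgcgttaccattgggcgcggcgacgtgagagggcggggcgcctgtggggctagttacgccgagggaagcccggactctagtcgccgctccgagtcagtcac
Myl9: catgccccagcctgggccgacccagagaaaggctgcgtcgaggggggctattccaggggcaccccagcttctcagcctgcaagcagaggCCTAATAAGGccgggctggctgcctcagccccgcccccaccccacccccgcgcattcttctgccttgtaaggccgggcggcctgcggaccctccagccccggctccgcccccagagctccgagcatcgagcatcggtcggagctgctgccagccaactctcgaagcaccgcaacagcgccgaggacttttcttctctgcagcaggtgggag
Cnn2: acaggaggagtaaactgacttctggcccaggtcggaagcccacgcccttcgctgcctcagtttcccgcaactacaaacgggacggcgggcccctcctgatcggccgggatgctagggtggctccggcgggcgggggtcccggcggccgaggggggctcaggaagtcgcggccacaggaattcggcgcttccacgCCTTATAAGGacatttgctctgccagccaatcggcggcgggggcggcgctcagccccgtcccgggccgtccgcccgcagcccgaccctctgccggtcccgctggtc

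Vcl stood at 163, 157 and 151 CPM in NAM and 289, 307 and 284 CPM in TGFβ+NAM (0.90 ± 0.09, edgeR adjusted p = 2.34e-12). Myl9 went from 4.5, 6.81 and 9.62 to 31.2, 22.4 and 20.6 CPM (1.82 ± 0.23), and Cnn2 from 214, 212 and 210 to 360, 370 and 349 CPM (0.76 ± 0.08), with no overlap in any of these 3 genes. Read on both strands, the CArG box was present for 1.81% of all 27025 genes with a RefSeq window of this length (1.63% of 32851 windows). It was held by 5 of the 22 contractile genes with a window (22.7%), of which Actg1 gave -0.43 (adjusted p = 0.778) and the others rose. Among called genes with a window, 3.16% of those that rose and 0.63% of those that fell held it, against 1.56% of the tested genes with one. A match describes the letters and does not show that a factor was bound there.

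**Figure D2:**
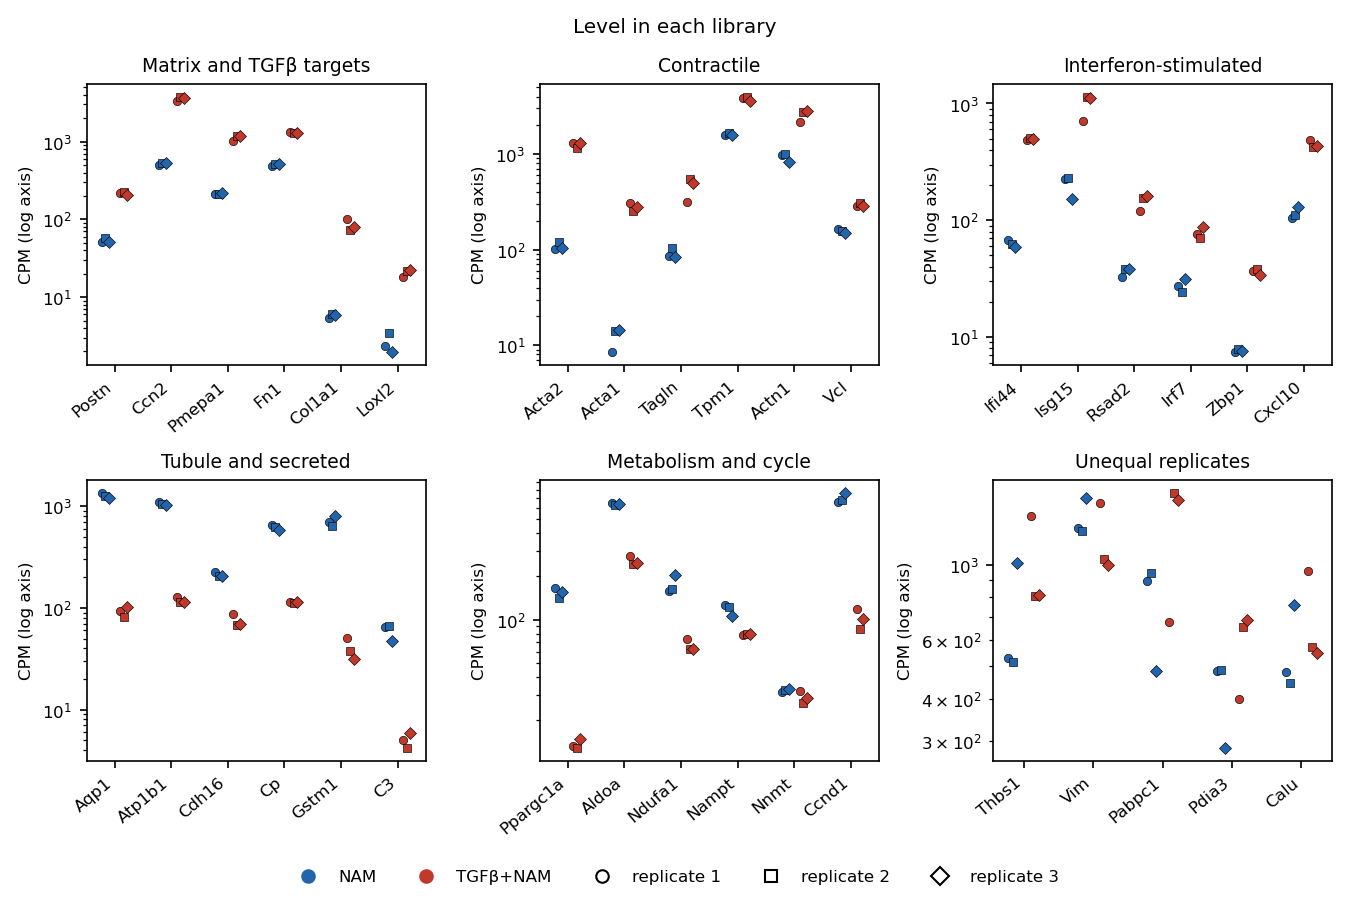
Level of selected genes in each of the 6 libraries, in CPM on a log axis, one panel per gene group. Blue marks NAM and red TGFβ+NAM, and circle, square and diamond are replicates 1 to 3. In the matrix, contractile, interferon and tubular panels the red and blue points do not overlap, whereas in the panel of unequal replicates 1 library of a group lies among those of the other for genes such as Thbs1 and Vim.

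Factors and cadherins of epithelial-mesenchymal transition had 6 of 12 rising and 1 falling (median 0.45). Without NAM replicate 3, 3 rose, and without both libraries that stood apart 3 rose as well; the 1 that fell was Cdh16, and 2 fell without NAM replicate 1 or TGFβ+NAM replicate 1. Cdh6, a cadherin of the developing proximal tubule, was at 753, 724 and 684 CPM in NAM and 1200, 1150 and 1110 CPM in TGFβ+NAM (0.68). N-cadherin, Cdh2, rose by 0.48 and the repressor Zeb2 by 0.73. Vimentin, Vim, a mesenchymal filament gene, was at 1280, 1260 and 1580 CPM and 1520, 1040 and 1000 CPM, where the 2 libraries that stood apart were the highest of their groups. Its log2 change was -0.21 (adjusted p = 0.278), and -0.32 without both (adjusted p = 0.00179). It passed as well without TGFβ+NAM replicate 1 alone (adjusted p = 7.7e-05).

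Epithelial keratins and junction genes did not fall as a group, with 7 of 14 rising and 2 falling (median 0.50). Keratin 8 went from 90.7, 100 and 104 to 193, 194 and 183 CPM (0.95), and Krt80, the junction adhesion molecule F11r and plakophilin 2, Pkp2, rose by 1.84, 0.65 and 0.53. The tight junction claudins Cldn1 and Cldn2, the latter a paracellular cation channel of the proximal tubule, fell by 1.01 and 2.83. Of 15 genes tied to YAP and TEAD, 6 rose and 1 fell (median 0.13). Ankrd1 went from 2480, 2660 and 2240 to 4190, 4380 and 4250 CPM (0.80), and Fstl1 and the YAP kinase Lats2 rose by 1.51 and 0.85. The fallen member was not called without NAM replicate 2 or 3 or TGFβ+NAM replicate 2, each giving 0.

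Interferon-stimulated genes rose almost throughout the list, in cells that had been off interferon-γ since before seeding. Of 33 tested effectors, 26 rose and 0 fell, with a median log2 change of 1.37, and 24 rose without the 2 libraries that stood apart. Ifi44 had 67.2, 63 and 59 CPM in NAM and 482, 508 and 496 CPM in TGFβ+NAM, with the groups far apart (2.97 ± 0.11, adjusted p = 6.31e-28). Parp14, an antiviral mono-ADP-ribosyltransferase, went from 74.9, 72.6 and 58.2 to 187, 234 and 235 CPM (1.67), and its partners Parp9 and Dtx3l, which share a bidirectional promoter, rose by 1.21 and 1.37. Ifi27 and Samd9l, of the same list, gave -0.18 and -0.15 and did not pass (adjusted p = 0.238 and 0.302).

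The interferon-stimulated response element (ISRE) is bound by a complex that holds STAT2 and IRF9. Promoters of 4 genes that rose are printed with each match to GAAANNGAAA, on either strand, in capitals. These genes were chosen for holding the motif, after their values were seen, and windows, build and source are as above. Ifit1 lies at chr19:34640639-34640938 (plus strand, 2 matches), Isg15 at chr4:156200769-156201068 (minus strand, 3 overlapping matches), Rsad2 at chr12:26456403-26456702 (minus strand, 1 match) and Stat2 at chr10:128270248-128270547 (plus strand, 1 match).
Ifit1: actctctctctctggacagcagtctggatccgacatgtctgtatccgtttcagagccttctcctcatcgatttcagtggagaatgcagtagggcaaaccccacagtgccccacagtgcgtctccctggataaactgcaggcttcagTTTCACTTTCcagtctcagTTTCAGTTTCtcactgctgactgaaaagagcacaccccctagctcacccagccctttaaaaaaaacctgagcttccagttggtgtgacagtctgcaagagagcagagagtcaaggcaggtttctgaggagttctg
Isg15: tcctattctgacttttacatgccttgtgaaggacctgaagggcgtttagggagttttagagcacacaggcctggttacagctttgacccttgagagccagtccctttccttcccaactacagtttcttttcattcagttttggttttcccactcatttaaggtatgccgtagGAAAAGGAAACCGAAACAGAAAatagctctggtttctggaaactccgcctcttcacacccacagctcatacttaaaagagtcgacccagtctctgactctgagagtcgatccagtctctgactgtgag
Rsad2: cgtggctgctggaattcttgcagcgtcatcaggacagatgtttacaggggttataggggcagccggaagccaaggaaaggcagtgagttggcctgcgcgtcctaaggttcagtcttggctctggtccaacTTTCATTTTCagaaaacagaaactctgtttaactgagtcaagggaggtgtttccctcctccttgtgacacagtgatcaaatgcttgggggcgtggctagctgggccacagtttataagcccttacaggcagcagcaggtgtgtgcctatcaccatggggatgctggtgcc
Stat2: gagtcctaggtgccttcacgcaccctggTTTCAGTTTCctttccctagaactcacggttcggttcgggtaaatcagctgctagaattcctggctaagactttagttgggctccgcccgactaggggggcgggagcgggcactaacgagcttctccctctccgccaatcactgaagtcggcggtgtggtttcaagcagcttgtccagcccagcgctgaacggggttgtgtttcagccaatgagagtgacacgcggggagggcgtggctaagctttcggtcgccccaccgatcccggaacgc

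Ifit1, which binds viral RNA caps, stood at 130, 140 and 114 CPM in NAM and 499, 475 and 481 CPM in TGFβ+NAM (1.92 ± 0.18, edgeR adjusted p = 1.21e-06). Isg15, a ubiquitin-like modifier, went from 224, 232 and 152 to 714, 1130 and 1110 CPM, NAM replicate 3 and TGFβ+NAM replicate 1 being the lowest of their groups (2.28 ± 0.23). Rsad2, viperin, went from 32.8, 38.5 and 38.2 to 120, 154 and 160 CPM (1.99 ± 0.16), and the transcription factor Stat2 from 35.8, 32 and 23.4 to 72.9, 84.1 and 96.2 CPM (1.47 ± 0.16). The groups were apart in all 4 genes. The element was in 3.44% of all promoter windows (3.99% of all genes with one). It was in 11 of the 24 listed effectors with a window (45.8%), of which 10 rose. These 10 were among 19 risen effectors with a window (52.6%), and the others, Ifi44 among them, rose without a match in it. Of the listed regulators, which include Stat2, 3 of 20 with a window held it (15%), and 1 of these 3 rose. Among called genes with a window, 7.41% of those that rose and 1.98% of those that fell held it, against 3.64% of the tested genes.

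Regulators of the response rose in 8 of 22 cases (median 0.36), and in 6 without the 2 libraries that stood apart. Irf7, which amplifies type I interferon, was at 27.6, 24.5 and 31.4 CPM in NAM and 75.7, 70.4 and 88.1 CPM in TGFβ+NAM (1.49). The nucleic acid sensor Zbp1 went from 7.4, 7.97 and 7.53 to 37.1, 38.1 and 34.3 CPM (2.25), and Irf9 rose by 0.75. The ligand gene Ifnb1 had 3 reads in NAM and 2 in TGFβ+NAM and was not tested, and Irf1, a target of interferon-γ, gave 0.14 (adjusted p = 0.418). The 1 fallen regulator, Irf8, was not called without NAM replicate 2 (adjusted p = 0.0511) or TGFβ+NAM replicate 3 (adjusted p = 0.0605).

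Antigen presentation did not follow the effectors. Of 21 tested genes, 3 rose (14.3%) and 4 fell (19%), against 10.9% and 11% of all genes (median -0.09). Only 1 rose without NAM replicate 1 or TGFβ+NAM replicate 1. Without both libraries that stood apart 2 rose and 3 fell, and the median turned to 0.03. The peptide transporter Tap1 rose by 0.61, whereas the class I heavy chain H2-K1 gave -0.13 (adjusted p = 0.204). Cd74, the class II invariant chain, fell in every library, from 81.7, 88.8 and 66.7 to 16.5, 12.2 and 12.6 CPM (-2.52), and the class II chain H2-Aa fell by 3.10. Reads of the H2 genes may be shared between near-identical copies.

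Chemokines and cytokines went both ways, 6 of 17 rising and 4 falling (median 0.26). Cxcl10, an interferon-induced T cell attractant, was at 105, 112 and 131 CPM in NAM and 488, 424 and 435 CPM in TGFβ+NAM (1.95, adjusted p = 4.78e-22). Il11, a fibrosis-associated cytokine, had 3.34, 0.771 and 0.837 CPM and then 18.6, 22.6 and 23.5 CPM (3.72), and Ccl5 rose by 1.16. The neutrophil attractants Cxcl1 and Cxcl5 fell by 1.18 and 3.61. Ackr3, a scavenging receptor of CXCL12, went from 26.8, 34 and 28.6 CPM to 1.6, 0.481 and 0.179 CPM (-5.29). Among NF-κB factors and feedback genes 3 of 16 rose (18.8%) and 4 fell (25%), against 10.9% and 11% of all genes (median 0.10). Without the 2 libraries that stood apart 0 rises passed edgeR, although the log2 changes were about as large: Tnfaip3 gave 1.32 (adjusted p = 0.0577), Nfkbiz 0.37 (0.0693) and Nfkb1 0.30 (0.0519). Without NAM replicate 1, 1 passed. Vcam1, Tnfaip2 and Sod2 fell by 1.11, 1.96 and 1.03. Complement C3 went from 65.4, 66.9 and 47.1 to 4.96, 4.17 and 5.92 CPM (-3.58), while clusterin, Clu, which restrains the terminal complex, went from 101, 107 and 98 to 290, 309 and 310 CPM (1.57).

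Transport genes of the tubule fell. Of 11 tested, 9 fell and 0 rose, with a median log2 change of -1.34. Aqp1, the water channel of the proximal tubule, stood at 1350, 1250 and 1200 CPM in NAM and at 94.3, 82.2 and 102 CPM in TGFβ+NAM (-3.77 ± 0.12, adjusted p = 2.98e-22). The β1 subunit of the sodium pump, Atp1b1, went from 1110, 1060 and 1020 to 129, 114 and 115 CPM (-3.16 ± 0.09, adjusted p = 1.35e-33), the smallest p of all genes tested. The carbonic anhydrase Car12 fell by 2.22. Summed over 9 tubular markers, the level was 1900 to 2030 CPM in NAM and 657 to 682 CPM in TGFβ+NAM, and Aqp1 made up most of it in NAM.

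The factors that specify the tubule moved less, 3 of 9 falling and 0 rising (median -0.22). Tfcp2l1, a collecting duct factor, was at 262, 260 and 288 CPM in NAM and 100, 77.4 and 76.1 CPM in TGFβ+NAM (-1.67), and Gata3 fell by 1.88. Pax8 gave -0.22 (adjusted p = 0.0635). Cdh16 fell from the values above to 86.3, 67.5 and 70.1 CPM (-1.52).

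Markers of tubular injury split, 8 of 20 rising and 9 falling (median -0.16). Kidney injury molecule 1, Havcr1, rose by 1.00, as did Cd44 with 1.13 and the lipid droplet coat Plin2 with 1.69. Lipocalin 2, Lcn2, had 121 reads in NAM and 5 in TGFβ+NAM. Ceruloplasmin, Cp, went from 650, 620 and 582 to 115, 111 and 115 CPM (-2.44), and Egr1 from 264, 282 and 297 to 84, 78.8 and 69.4 CPM (-1.86). Of 10 secreted and metabolic genes listed for their high level in untreated cells, 6 fell and 2 rose (median -1.10), a list whose choice drew on these samples and is no independent evidence of its direction. Ptgds, a prostaglandin synthase, and Agt, angiotensinogen, changed by -3.62 and -4.25.

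Respiration genes fell by small, shared amounts. Of 36 nuclear genes for subunits of the respiratory chain and ATP synthase, 30 fell and 0 rose (median -0.44), with 30 falling without the 2 libraries that stood apart and 21 to 29 falling without any 1 library. Ndufa1, of complex I, had 159, 164 and 204 CPM in NAM and 72.9, 62.7 and 62.6 CPM in TGFβ+NAM (-1.41). Ndufb8, Cox8a and Atp5a1 fell by 1.03, 0.85 and 0.72. Of 7 genes encoded in mitochondrial DNA, 4 fell (median -0.33), and 2 fell without both libraries or without NAM replicate 1 or 2 or TGFβ+NAM replicate 3. The transcript mt-Nd1 went from 5990, 6190 and 6560 to 5300, 4530 and 4430 CPM (-0.39).

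Ppargc1a, the coactivator that drives mitochondrial biogenesis, was at 166, 142 and 156 CPM in NAM and 13.3, 12.8 and 14.9 CPM in TGFβ+NAM (-3.50 ± 0.14, adjusted p = 5.06e-26). With fatty acid oxidation genes counted in, 10 of 23 fell and 0 rose (median -0.33). The thiolase Acaa2 fell by 1.60, Acadm by 0.64 and Hadh by 0.48, and Acadl gave 0.10 (adjusted p = 0.554). Glycolysis fell beside respiration, 16 of 23 genes falling and 1 rising (median -0.74). Aldolase A, Aldoa, went from 646, 624 and 638 to 279, 245 and 247 CPM (-1.31), Gpi1, Tpi1 and Eno1 fell by 0.88, 0.74 and 0.81, and the 1 riser was the growth factor Vegfa, with 0.61.

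Genes of glutathione and the antioxidant factor NRF2 fell in 17 of 30 cases (median -0.49). The factor itself, Nfe2l2, was at 173, 172 and 157 CPM in NAM and 69.5, 72.3 and 88.4 CPM in TGFβ+NAM (-1.13). The glutathione transferase Gstm1 went from 701, 645 and 796 to 50.7, 37.5 and 31.4 CPM (-4.16) and its near copy Gstm2, with which it may share reads, fell by 1.83. In the same list 3 genes rose, or 1 without NAM replicate 1 or 2 or TGFβ+NAM replicate 1, and glutathione peroxidase, Gpx1, rose by 0.55. Cholesterol synthesis moved the other way, 9 of 25 rising and 0 falling (median 0.26), or 1 falling without TGFβ+NAM replicate 1 or both libraries that stood apart. The sterol isomerase gene Ebp rose by 0.62 and the demethylase gene Cyp51 by 0.48.

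Among genes of nicotinamide and NAD metabolism, Nampt and Bst1 fell and Nnmt did not pass. Nnmt was at 31.3, 32.5 and 33.1 CPM in NAM and 31.9, 26.4 and 28.7 CPM in TGFβ+NAM, ranges that overlap (-0.16 ± 0.17, edgeR adjusted p = 0.586). Nampt, which starts NAD salvage from NAM, fell in all 3 libraries, from 126, 122 and 106 to 78.2, 79.5 and 80 CPM (-0.57 ± 0.11, adjusted p = 4.75e-05), and Bst1, an NAD-consuming ectoenzyme, went from 289, 294 and 281 to 176, 182 and 184 CPM (-0.67). These were the 2 called of 13 tested NAD synthesis and salvage genes (15.4%, against 21.9% of all genes called in either direction). Of that list 0 were higher (median -0.35), or 1 without TGFβ+NAM replicate 3. Among sirtuins and PARPs 6 of 22 rose, and those named here, Parp14, Parp9, Parp11 (0.71) and Parp12 (0.79), include interferon-stimulated genes counted above; the 1 that fell was not called without NAM replicate 1 or TGFβ+NAM replicate 2 or 3, each giving 0. Adh7, a retinol and alcohol dehydrogenase, went from 264, 271 and 289 to 127, 110 and 99 CPM (-1.29).

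Inmt, the close relative of Nnmt that methylates indoleamines, was not counted in the treated cells. It had 41.9, 54.9 and 36.1 CPM in NAM, 975 reads in all, and 0 reads in the 3 TGFβ+NAM libraries. Against a floor of 3 counts over that group (0.172 CPM) it was at least 258-fold lower (edgeR adjusted p = 1.81e-18). Of 23 methionine cycle and polyamine genes 6 fell and 2 rose (median -0.09). Ahcyl2 and ornithine decarboxylase, Odc1, fell by 1.14 and 0.90. The rises, of Cth with 0.51 and methionine synthase, Mtr, with 0.43, kept their direction without any 1 library but missed the threshold in several fits. With 1 library left out, 0 passed without NAM replicate 1 or TGFβ+NAM replicate 1 or 3, and 1 without NAM replicate 2 or 3. Without both libraries that stood apart 1 rose and 4 fell. Mat2a, which makes SAM, gave 0.15. Histone and DNA methyltransferases had 3 of 29 higher (10.3%) and 2 lower (6.9%), no more than the 10.9% and 11% of all genes (median 0.17). Higher genes numbered 6 without either or both of the libraries that stood apart, and 5 without TGFβ+NAM replicate 3. Lower genes numbered 1 without NAM replicate 1 or 3, any 1 TGFβ+NAM library or both libraries that stood apart. Suz12 and Ezh2, of the repressive Polycomb complex, rose by 0.62 and 0.41, the related Ezh1 fell by 0.68, and Setdb2 rose by 1.55.

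Ccnd1 and Ccnd2 fell. Cyclin D1, Ccnd1, the sensor of growth signals at the G1 checkpoint, had 659, 684 and 759 CPM in NAM and 118, 86.2 and 101 CPM in TGFβ+NAM (-2.79 ± 0.10, adjusted p = 2.93e-28). Ccnd2 went from 2200, 2140 and 1980 to 1060, 1200 and 1160 CPM (-0.88). Among CDK inhibitors, p15 (Cdkn2b) went from 75.7, 66.9 and 74.3 to 113, 103 and 105 CPM (0.56) and p21 (Cdkn1a) from 1640, 1580 and 1320 to 1820, 2620 and 2440 CPM (0.60), while Cdkn1b and Cdkn2c fell by 0.49 and 0.81. Cyclins D and inhibitors together had 3 of 16 higher and 5 lower (median -0.18). The third riser was Cdkn2a, which encodes p16 and ARF, at 691, 701 and 455 CPM in NAM and 631, 1090 and 1060 CPM in TGFβ+NAM, where both libraries that stood apart were the lowest of their groups. Its change of 0.59 ± 0.19 (adjusted p = 0.0406) became 0.63 without both (adjusted p = 2.94e-09). The call ended without NAM replicate 1 (adjusted p = 0.0501), NAM replicate 3 (0.132), TGFβ+NAM replicate 2 (0.163) or TGFβ+NAM replicate 3 (0.149). It was also lost in a fit of the compared libraries alone (0.233) and without the low-count filter (0.08).

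DNA replication and mitosis genes had 11 of 32 higher and 2 lower (median 0.22), with 7 higher without both libraries or without TGFβ+NAM replicate 3, and 1 lower without both, NAM replicate 1 or TGFβ+NAM replicate 1. The helicase subunits Mcm3 and Mcm4 rose by 0.44 and 0.40 and the ribonucleotide reductase Rrm1 by 0.54, whereas the mitotic activator Cdc20 fell by 0.45. The p53 targets split, 4 of 25 higher and 5 lower (median -0.08), with Mdm2 at 0.30 and Gadd45a at -0.83. Of 26 immediate early and heat shock genes 7 rose and 7 fell (median -0.12), with 4 higher without NAM replicate 1 or TGFβ+NAM replicate 3; Fos and the ERK phosphatase Dusp6 fell by 2.26 and 1.36. Stress genes downstream of ATF4 had 3 of 30 higher and 9 lower (median 0.00), with 5 higher without TGFβ+NAM replicate 1 and a median of -0.09 without both libraries that stood apart, Vldlr falling by 1.30 and Mthfd2 rising by 0.42. Of 21 endoplasmic reticulum chaperones 1 rose and 0 fell (median 0.06), or 3 rose without TGFβ+NAM replicate 1 and 2 without both libraries, NAM replicate 2 or TGFβ+NAM replicate 3, the median being -0.02 to 0.09 without 1 library; Hspa5 gave 0.01. Notch and Wnt genes had 9 of 21 higher and 3 lower, among them Fzd2 (1.23), Jag1 (0.66) and Notch1 (-0.60). Their median of -0.18 turned to 0.17 without both libraries that stood apart and lay between -0.14 and 0.15 without 1 library. Of 14 retinoid genes 1 rose and 6 fell (median -0.47), with 3 falling without TGFβ+NAM replicate 3 or both libraries that stood apart, and 2 rising without TGFβ+NAM replicate 1; the vitamin A receptor Stra6 fell by 2.53.

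**Figure D3:**
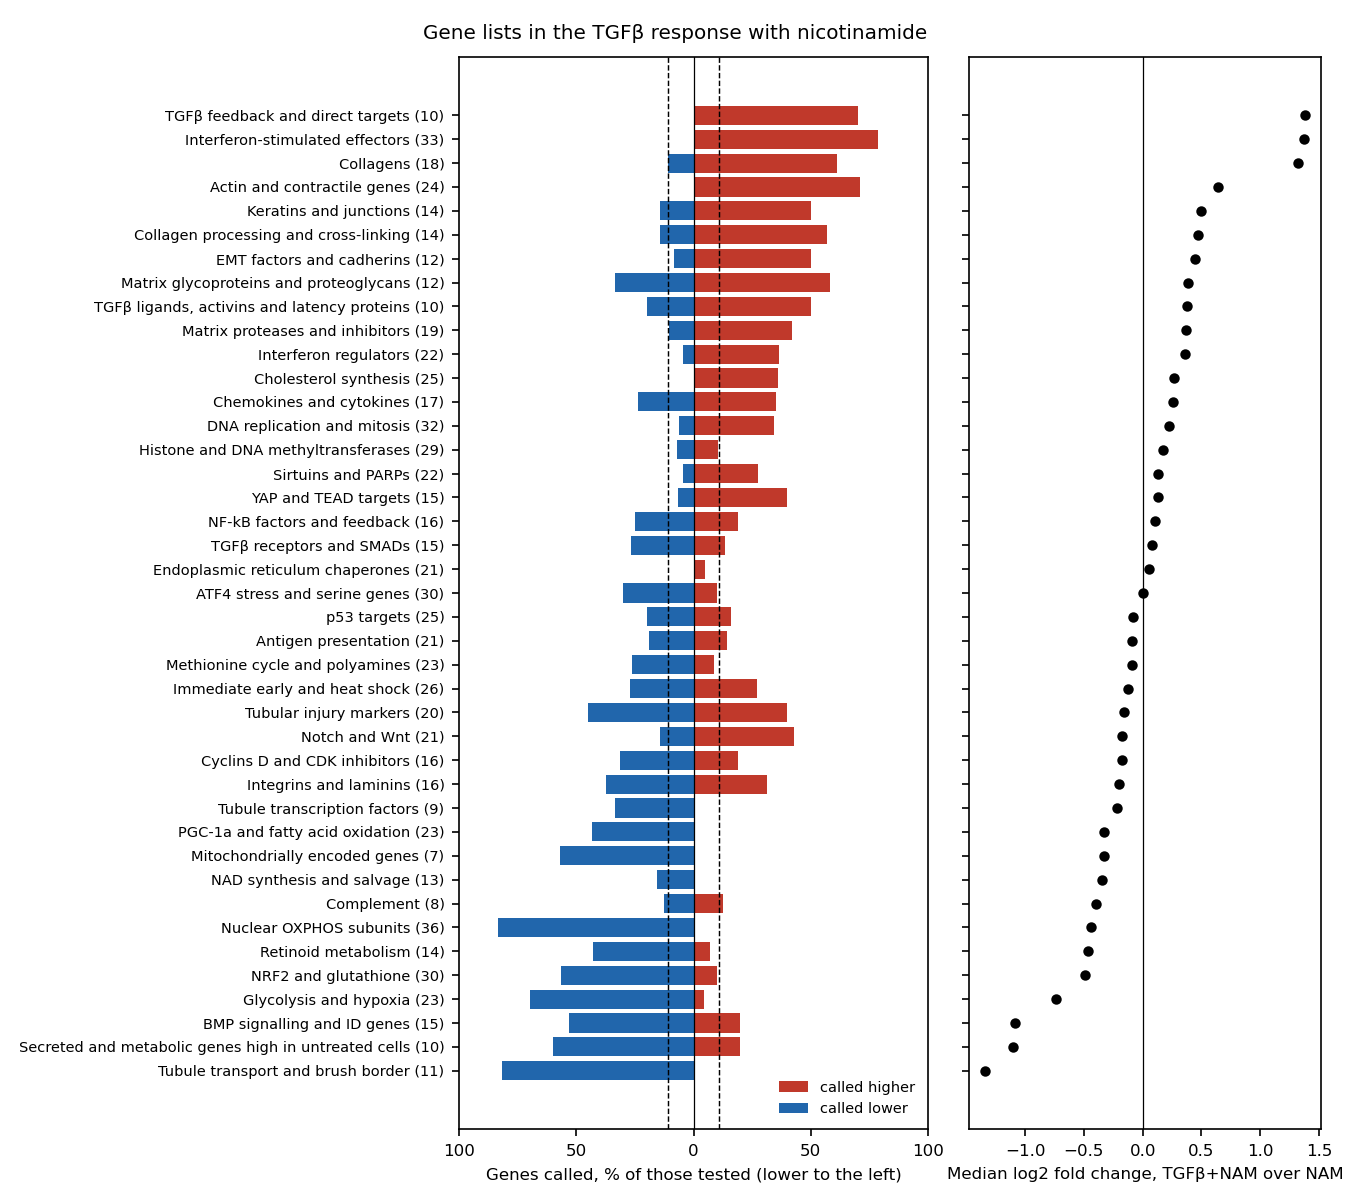
Gene lists with at least 5 tested members. On the left, bars to the right give the percent of tested members that rose and bars to the left the percent that fell, with dashed lines at the 10.9% and 11% of all genes; on the right, points give the median log2 change, TGFβ+NAM minus NAM. Interferon effectors, contractile genes and feedback targets have the longest red bars, and respiration, tubular transport and glycolysis the longest blue ones.

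The largest rises also took in genes outside these lists. Ctsw, a cathepsin best known from lymphocytes, had 1.31, 3.34 and 2.65 CPM in NAM and 88.3, 89.6 and 89.9 CPM in TGFβ+NAM, nearly equal within the treated group (5.17). The imprinted non-coding RNA H19 went from 0.145, 0.257 and 0.558 to 12.6, 16.7 and 14.2 CPM (5.41), and the interleukin 33 receptor Il1rl1 from 1.45, 0.514 and 1.95 to 41, 33.5 and 36.4 CPM (4.82). Kif26b, an atypical kinesin, went from 0.58, 0.257 and 0 to 3.72, 16 and 19.2 CPM, its replicate 1 being the lowest of the treated group (5.46). Among the largest falls were Scel, sciellin, by 5.32, and the adenosine receptor Adora1, by 4.54.

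Whether NAM altered the response was tested as the difference between the TGFβ change with NAM and that without any supplement, 2 responses that share no library. By edgeR 0 genes passed (0%), the smallest adjusted p being 0.955; 457 genes (3.39%) had an unadjusted p under 0.05, and DESeq2 called 0 as well. The median SE of this difference was 0.29. In the same simulation, a rough guide here too, 48% of 2-fold and 10% of 1.5-fold differences were called. Differences of such sizes, and smaller ones, could therefore be missed. TGFβ alone called 2637 genes (19.6%), and 2013 genes were called in both responses with the same sign. That is 68.3% of the calls with NAM and 76.3% of those without. Across the 13469 genes, which are not independent replicates, the log2 changes correlated at r = 0.74 (Spearman 0.65). Of the 940 genes changed at least 2-fold with NAM, 924 had the same sign without it, and their median absolute log2 change was 1.63 with NAM and 1.39 without. These genes were chosen by their change with NAM.

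The genes with the smallest p of this difference were spread over functions. Ccnd1 stood at 700, 647 and 649 CPM in control and 144, 135 and 140 CPM with TGFβ, beside 659, 684 and 759 and 118, 86.2 and 101 CPM with NAM. The difference was -0.54 ± 0.13 (unadjusted p = 0.000168, edgeR adjusted p = 0.955). Without TGFβ+NAM replicate 1 it was -0.65 (adjusted p = 0.0492), and Ccnd1 was then the 1 gene called. Gch1, which starts tetrahydrobiopterin synthesis, differed by 2.20 ± 0.61 and the adhesion protein gene Npnt by -0.90 ± 0.22, neither past the threshold (adjusted p = 1 and 0.955).

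The response with SAM differed more from that with NAM, although the SAM libraries carry a separate run of library numbers, and whatever that run stands for cannot be told apart from the supplement. By edgeR, 181 genes differed (1.34%), 73 with a higher log2 change with NAM (0.542%) and 108 with a lower one (0.802%). In size, the NAM response was the smaller for 140 of them. Postn went from 22.3 ± 3.58 to 347 ± 26.7 CPM with SAM (SD, n = 3) and from 50.6, 57.4 and 51.7 to 219, 224 and 207 CPM with NAM, a difference in log2 change of -1.94 ± 0.14 (adjusted p = 1.4e-14). The cardiac troponin gene Tnnt2 rose by 2.32 with NAM and by 4.86 with SAM, and Pmepa1 by 2.41 and 3.73. Ccn4 rose by 2.15 with NAM and 3.38 with SAM, and Inhba by 1.68 and 3.18. Ifit3 went in opposite directions, rising by 1.39 with NAM and falling by 1.58 with SAM, from 59.7 ± 4.92 to 19.8 ± 6.91 CPM (difference 2.97 ± 0.19, adjusted p = 1.49e-16). Nampt fell by 0.57 with NAM and by 1.71 with SAM. The treatment tags of SAM replicates 2 and 3 go against their titles, and without these libraries 29 genes had a higher and 39 a lower change with NAM. Leaving out 1 library also moved the counts, to 130 and 174 without TGFβ+NAM replicate 1, 54 and 70 without NAM replicate 2, and 62 and 69 without TGFβ+NAM replicate 3.

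**Figure D4:**
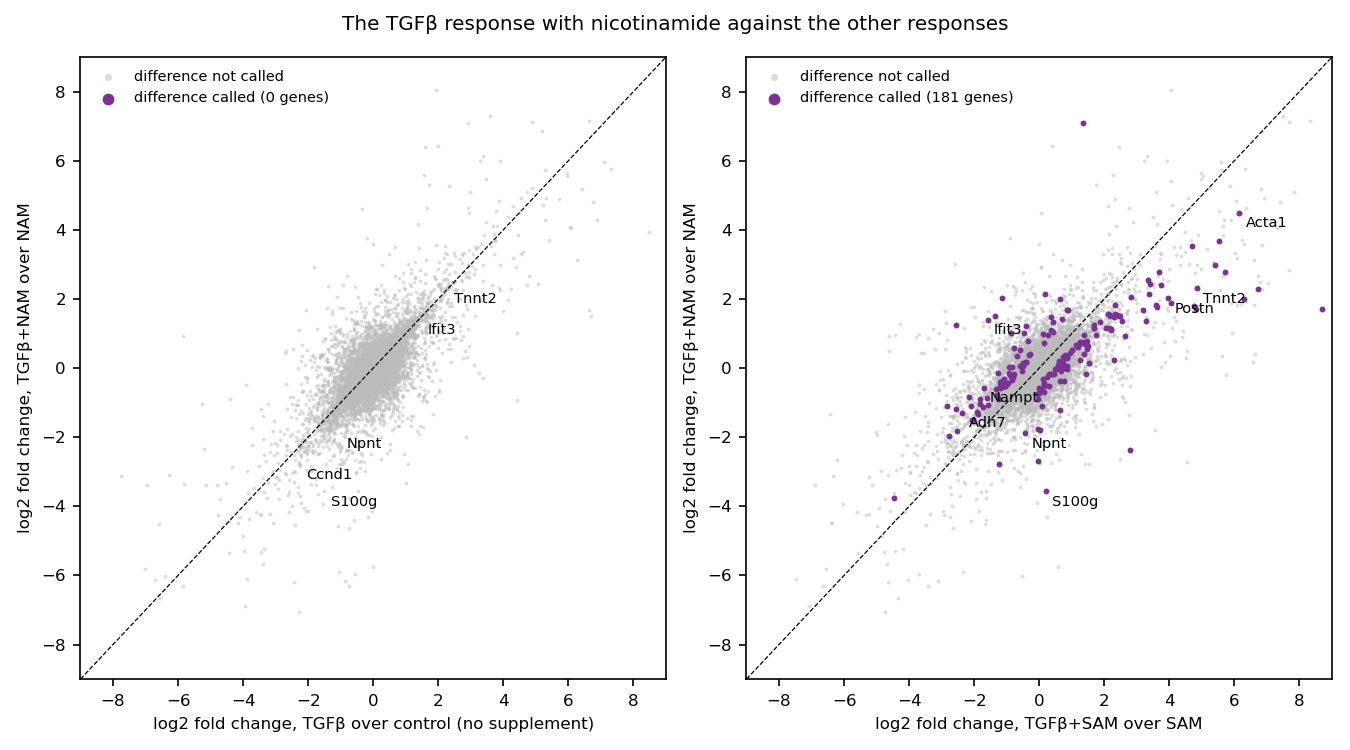
The TGFβ response with NAM (vertical axis, log2 change) against the response without a supplement (left) and with SAM (right), each point a tested gene, on axes cut at ±9 with 1 gene outside in each panel. The dashed line marks equal responses; the coloured genes are the 181 whose response with NAM differed from that with SAM, while in the left panel 0 genes differed.

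The 2 libraries that stood apart deviated together across abundant transcripts. Among 4174 genes of at least 50 CPM, 22 were higher and 41 lower by at least 0.5 log2 in both NAM replicate 3 and TGFβ+NAM replicate 1 than in the other libraries of their groups, and 0 went opposite ways. Across 4168 genes of at least 50 CPM their deviations correlated at r = 0.613, and at 0.168 across all 13469 genes. Thrombospondin 1, Thbs1, an activator of latent TGFβ, had 528, 515 and 1010 CPM in NAM and 1390, 806 and 813 CPM in TGFβ+NAM. NAM replicate 3 thus lay above 2 of the treated libraries, and the change of 0.55 did not pass (adjusted p = 0.142), whereas without both libraries it was 0.63 (adjusted p = 3.72e-09). Without NAM replicate 3 alone it passed too (adjusted p = 0.00259).

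Other genes were lowest in both libraries. Pabpc1, the poly(A)-binding protein, had 897, 948 and 484 CPM in NAM and 675, 1630 and 1550 CPM in TGFβ+NAM, the 2 libraries being the lowest of their groups (0.73, adjusted p = 0.129). The disulfide isomerase Pdia3 was at 483, 489 and 286 and 401, 654 and 686 CPM (0.47, adjusted p = 0.172). Without both libraries Pabpc1 and Pdia3 passed (adjusted p = 0.0101 and 0.00161), as they did without TGFβ+NAM replicate 1 alone (0.0104 and 0.0315). Calu, which like Pdia3 encodes a protein of the endoplasmic reticulum, was among the higher ones, at 480, 446 and 757 and 960, 570 and 547 CPM, and passed without both (adjusted p = 0.0179) or without NAM replicate 3 alone (0.0456). The cause of this shared pattern was not tested.

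**Figure D5:**
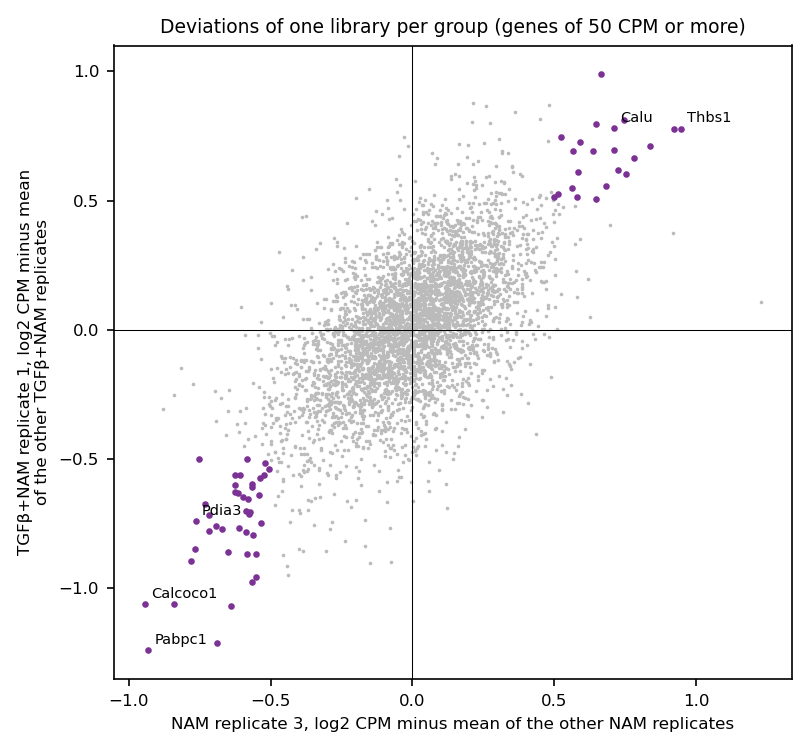
Deviation of NAM replicate 3 (horizontal) and of TGFβ+NAM replicate 1 (vertical) from the mean of the other libraries of their group, in log2 CPM, for 4174 genes of at least 50 CPM. Purple marks the 63 genes that deviate by at least 0.5 in both libraries in the same direction, all in the lower left or upper right corner.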

How the data were processed

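QuantSeq 3′ libraries of polyadenylated RNA were sequenced from 18 samples, grouped by their titles. The authors deposited raw counts per gene, made with STAR and HTSeq per the submitters' processing notes, without versions. Those notes name GRCh38, a human build, although all 55487 gene identifiers are mouse, which leaves the build unsettled. No source used here gives the strand setting, so reads of overlapping and antisense genes may be mixed. Special rows for unassigned reads (22.8% to 28.2% outside genes and 0.607% to 0.779% ambiguous) were left out of library sizes and tests. Symbols came from GENCODE M21 for 55141 rows.

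Counts were tested with edgeR 4.0.16 (R 4.3.3): TMM scaling, filterByExpr with a minimum count of 10, 1 robust quasi-likelihood fit of all 18 libraries with a term per group, and two-sided F tests with Benjamini-Hochberg adjustment at 0.05 over 13469 genes. Adjusted p-values in the text are from edgeR unless DESeq2 (1.42.0) is named. Log2 changes are fitted values with their SE, and CPM are counts scaled to a common library size with TMM factors. A group without reads was given a floor of 3 counts over the group; floors cover counting error only, since reads carry no molecular identifiers. The fit was tested on simulated data. The tested groups, gene lists and members were chosen with earlier results of these data known. Genes were named by a rule: the 12 largest rises and 12 largest falls with at least 5 CPM and no overlap, up to 4 members of each list in each direction by p with at least 1 that did not pass, and the top genes of each difference between responses; the text takes its examples from these, and some genes the rule names are left out. Exceptions, chosen after their values were seen, are the promoter genes, Gdf15, Irf8, Csf1r, Fcer1g, Bmp7, Actg1, Col4a3, Col4a4, Lcn2 and Ifnb1. Replicates of a group differed beyond sampling noise (chi-square over degrees of freedom 3.43 to 14.8). The labels do not say that equal replicate numbers mark a shared culture, so no pairing was used. Alternatives were DESeq2, its size factors in edgeR, library totals, other low-count filters, the compared libraries alone, the replicate block and leaving out libraries. Promoter windows of 27025 genes came from RefSeq (GRCm38.p6), and 9296 of the tested genes matched by symbol.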

Additional observations from a re-analysis of the deposited data

Results flagged for a closer look

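The response to TGFβ with NAM differed from that with SAM, by a test of the difference itself, for 73 genes with a higher log2 change with NAM and 108 with a lower one. The NAM and SAM responses share no library. The genes with the smallest p in each direction, all by edgeR with adjustment over all tested genes, follow as differences in log2 change, NAM minus SAM. The interferon-stimulated genes Ifit3 and Ifit3b, which may share reads, differed by 2.975 and 2.869, since both rose with NAM and fell with SAM. Adh7, Nampt and the cholesteryl ester hydrolase Nceh1 fell in both and less with NAM, with differences of 1.077, 1.137 and 0.9301. The fibrosis and contractile genes Tnnt2, Postn, Pmepa1, Ccn4 and Inhba rose in both and less with NAM, with differences of -2.539, -1.94, -1.321, -1.231 and -1.501. These 10 genes kept their call in each fit that left out 1 library. Against the response without a supplement, the response with NAM differed for 0 genes, in a test of limited power. The response with SAM was not tested against it. The SAM libraries carry a separate run of library numbers, and what it stands for cannot be told apart from the supplement.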

How the results depend on the processing

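Counts of genes that rose and fell with TGFβ in NAM kept within 1.5 times under every alternative. No named gene that passed in the reported fit or in the alternative changed direction between them. Genes that passed in neither were not checked for direction. Leaving out 1 library gave 1212 to 1516 higher and 1201 to 1423 lower. DESeq2 called 1455 higher and 1403 lower. Library totals in place of TMM called 1207 and 1726, a share of 41.2% higher against 49.6%, with a median log2 change of -0.05. The 6 compared libraries alone gave 1237 and 1279. An alternative chosen after seeing the data, those libraries without NAM replicate 3 and TGFβ+NAM replicate 1, gave 1507 and 1415, sharing 2460 calls with the reported ones. Same-numbered libraries deviated with correlations of -0.0704, 0.0696 and -0.0997 across all tested genes. Across genes of at least 50 CPM these were -0.402, 0.354 and -0.374. Deviations within a group of 3 sum to 0, so these values cannot tell whether equal numbers mark a shared culture. The replicate block gave 1460 higher and 1480 lower.

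The difference from the response without supplement went from 0 genes to 1 without TGFβ+NAM replicate 1 and stayed at 0 in the other fits. The difference from the response with SAM moved most. Higher genes numbered 54 to 130 and lower genes 69 to 174 over fits without 1 library, and 29 and 39 without SAM replicates 2 and 3. The causes were not tested. Depth limits genes of few reads: 42018 of the 55487 rows were below the count filter.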

Other observations

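Gene families outside the lists, grouped by symbol after values were seen, are given as counts with no test of the family. Over all tested genes 10.9% were higher and 11% lower. Of 13 tetraspanin genes, membrane organisers, 7 (53.8%) fell and 0 rose in TGFβ+NAM (median log2 change -0.61 against 0.00 over all genes). Of 19 semaphorin and plexin genes, guidance cues and their receptors, 8 (42.1%) fell and 1 rose (median -0.48). Aldehyde dehydrogenases had 5 of 14 (35.7%) lower and 0 higher (median -0.39), and solute carriers 39 of 184 (21.2%) lower and 10 (5.43%) higher (median -0.14). Aminoacyl-tRNA synthetases, which charge tRNAs for translation, had 6 of 17 (35.3%) higher and 0 lower (median 0.14). Genes matched by a tubulin symbol pattern, which also takes in γ-tubulin complex genes, had 5 of 18 (27.8%) higher and 0 lower. Ribosomal protein genes were mostly not called, with 5 of 79 (6.33%) higher and 0 lower.

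Some called genes had 0 reads in one group, 14 in NAM and 17 in TGFβ+NAM. Folds are lower limits against 3 counts over that group. Oacyl stood at 4.79, 8.33 and 2.69 CPM with TGFβ and was at least 38.4-fold higher (edgeR adjusted p = 4.77e-06). The cartilage collagen gene Col2a1, at 4.61, 1.12 and 2.33 CPM, was at least 19.6-fold higher, the muscle cadherin Cdh15 at least 20.5-fold and the retinoic acid carrier Crabp2 at least 12.4-fold. In the other direction the Wnt deacylase Notum, at 3.19, 2.31 and 2.51 CPM in NAM, was at least 15.5-fold lower with TGFβ, and the ectodysplasin receptor Edar at least 13.6-fold. These genes rest on 30 to 94 reads in the group that has any.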
